A study of Mus musculus with 23 samples.

Results

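Kupffer cells are the macrophages that live in the sinusoids of the liver. The chromatin described here comes from the 6 ATAC-seq libraries of mouse Kupffer cells that the study's titles mark as PBS-treated or control, of 23 libraries in the series. They come from 3 experiments with 2 libraries each. The first pair is from Clec4f-cre/Rosa26iDTR mice, which carry an inducible diphtheria toxin receptor under a Cre driven by the Kupffer gene Clec4f and were given PBS in place of toxin (PBS controls). The second pair is from Nr1h3 flox/flox mice with no Cre named and no treatment (Nr1h3 controls), Nr1h3 being the gene of the nuclear receptor LXR alpha. The third pair is titled control in an experiment on Smad4, the shared mediator of TGF-beta and BMP signalling, also without treatment (Smad4 titled controls). Its strain label reads Smad4 flox/flox Clec4f-cre +/-, whereas the pair titled knockout there is labelled without Cre. Which of those pairs kept Smad4 cannot be told from the labels, and total counts, the main gene lists and most named regions of the Smad4 contrasts are also given with the other pair. Names in the file headers mark all 6 libraries as male, and carry the tag ClecPos for PBS controls, ClecNegTim4Pos for Nr1h3 controls and ClecNeg for Smad4 titled controls. Whether the tag names a gate or a genotype is not given in the sources used here, and both Smad4 pairs carry ClecNeg. The signal summed over Clec4f regions was 204 and 249 in PBS controls, a mean of 357 with an SD of 33.9 in the 2 Nr1h3 controls, and 202 and 237 in Smad4 titled controls. Ages were not given. Genotype, treatment, header tag, date and experiment go together, so they cannot be told apart in any contrast below.

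ATAC-seq marks accessible DNA by the insertion of a transposase, and a peak is a stretch with more sequenced tags than its surroundings. The identity of tissue macrophages is known to rest on lineage factors such as PU.1, which open a broad set of myeloid elements, and on factors induced by tissue signals, which add elements of their own. In Kupffer cells those signals include Notch ligands, TGF-beta family ligands and sterol ligands of LXR alpha, and the resident cells express Clec4f, Timd4, Vsig4, Cd5l and Marco.

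Merging overlapping peaks over the 6 lists gave 90462 regions on the autosomes and chromosome X, of which 41765, or 46.2%, held a peak in every library. These 41765 regions are called the Kupffer landscape below. The libraries held 10.4 to 18.3 M sequenced tags (M, mega), of which 19.5% to 36.6% lay in peaks, and 58395 to 67555 peaks were deposited for each. PBS controls had the fewest tags, 10.5 and 10.4 M, against 17.3 and 15.1 M in Nr1h3 controls and 16.5 and 18.3 M in Smad4 titled controls. Their share of tags in peaks was 32.6% and 36.6%, against 33.4% and 26.0% in Nr1h3 controls and 19.5% and 25.2% in Smad4 titled controls. A region's signal is its normalised tag count, the tags in its strongest peak scaled to a library of 10 M tags.

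The cell label was checked against markers. All 7 Kupffer markers chosen for the check had landscape regions: 6 at Clec4f (a galactose-binding lectin), 12 at Timd4 (a receptor for phosphatidylserine), 5 at Vsig4 (the complement receptor of immunoglobulin superfamily), 7 at Cd5l (a secreted survival factor), 13 at Marco (a scavenger receptor), 6 at Cd163 (the haemoglobin scavenger receptor) and 3 at Folr2 (a folate receptor). A linked region within 50 kb is a loose measure, met by 13069 of 21887 protein-coding genes. It was met by 9 of 12 liver endothelial, 9 of 12 monocyte, 8 of 9 dendritic cell and 6 of 11 T and NK cell markers. For neutrophil, B cell, hepatocyte and stellate markers it was 4 of 10, 3 of 8, 3 of 12 and 1 of 10. Promoter peaks, a stricter measure, are counted next. Of 18 Kupffer identity genes with a promoter window in the RefSeq table, 14 and 14 had a promoter peak in the PBS controls, 15 and 14 in the Nr1h3 controls and 13 and 14 in the Smad4 titled controls, against 4 and 3 in blood monocytes. Untreated BMDM had 9 and 9, DLL4-treated BMDM 10 and 9, and the macrophages repopulating the liver at 48 h 7 and 7. Peaks of these other libraries were counted only inside regions merged from the 6 control Kupffer lists, which tilts the comparison toward the Kupffer libraries. All 6 libraries had a peak at 12 of the 18, or 66.7%, beside 47.6% of all protein-coding genes with a promoter window. Among other lists the share was 100% for heat shock, 88.2% for macrophage transcription factor and 64.3% for Notch pathway genes. For hepatocyte, stellate and B cell markers no promoter window held a peak in any of the 6 libraries, and for T and NK cell markers none held one in all 6. The liver endothelial list had 1 such promoter of 8, that of Fcgr2b, an Fc receptor that macrophages also express. The neutrophil list had 2 of 10, S100a8 and Csf3r, the monocyte list 2 of 10, Itga4 and Ccl9, and the dendritic cell list 1 of 7, Batf3. On the monocyte list each single control Kupffer library had 2 or 3 promoters with a peak, and blood monocytes had 3 and 3. That list therefore does not tell the 2 cell types apart.

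The promoters of 5 of the 7 markers were open in all 6 libraries, and no blood monocyte library had a peak in the landscape regions at those of Clec4f or Timd4. They are shown because they are marker promoters open in all 6, although not all are closed elsewhere: untreated BMDM had a peak at the Timd4 promoter. Each run holds the 250 bases before the annotated start, 5′ to 3′ on the gene's strand, from RefSeq on GRCm38.p6, and all 5 genes matched the table. Capitals mark matches, on both strands, to the PU.1 core GAGGAA, the AP-1 motif TGANTCA, the nuclear receptor half-site AGGTCA, the RBPJ motif TGGGAA and the SMAD motif CAGACA, none of which overlap in these windows.
Clec4f (chr6:83656117-83656366, minus strand): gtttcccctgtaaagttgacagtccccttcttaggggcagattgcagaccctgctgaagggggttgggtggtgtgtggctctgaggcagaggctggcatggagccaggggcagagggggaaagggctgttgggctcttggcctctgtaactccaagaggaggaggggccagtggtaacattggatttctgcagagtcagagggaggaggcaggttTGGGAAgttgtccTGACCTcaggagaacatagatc
Timd4 (chr11:46810549-46810798, plus strand): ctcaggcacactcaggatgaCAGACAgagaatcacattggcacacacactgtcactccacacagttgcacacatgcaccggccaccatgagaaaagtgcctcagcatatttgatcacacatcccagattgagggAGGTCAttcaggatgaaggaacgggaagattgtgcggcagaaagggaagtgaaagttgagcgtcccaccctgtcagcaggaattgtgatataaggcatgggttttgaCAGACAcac
Vsig4 (chrX:96293439-96293688, minus strand): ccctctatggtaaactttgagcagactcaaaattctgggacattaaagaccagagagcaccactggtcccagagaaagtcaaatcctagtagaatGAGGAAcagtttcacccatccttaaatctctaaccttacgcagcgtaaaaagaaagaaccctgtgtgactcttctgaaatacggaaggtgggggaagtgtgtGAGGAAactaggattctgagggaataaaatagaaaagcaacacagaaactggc
Cd5l (chr3:87357631-87357880, plus strand): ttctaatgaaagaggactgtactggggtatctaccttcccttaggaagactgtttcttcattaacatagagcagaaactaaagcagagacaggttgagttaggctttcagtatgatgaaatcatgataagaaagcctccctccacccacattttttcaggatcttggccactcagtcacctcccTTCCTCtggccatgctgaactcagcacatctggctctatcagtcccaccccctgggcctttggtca
Marco (chr1:120505025-120505274, minus strand): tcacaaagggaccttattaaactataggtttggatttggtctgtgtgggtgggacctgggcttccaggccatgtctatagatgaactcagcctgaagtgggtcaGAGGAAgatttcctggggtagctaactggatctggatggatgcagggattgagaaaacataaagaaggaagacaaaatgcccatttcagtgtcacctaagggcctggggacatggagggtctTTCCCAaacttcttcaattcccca

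The Clec4f window held 1 nuclear receptor half-site and 1 RBPJ motif, the Timd4 window 1 half-site and 2 SMAD motifs, the Vsig4 window 2 PU.1 cores, the Cd5l window 1 PU.1 core, and the Marco window 1 PU.1 core and 1 RBPJ motif. Such short motifs are common: GAGGAA stood in 22.9% of the 10537 promoter windows met by a landscape region and in 23.4% of all 32619 windows of the same length. AGGTCA stood in 9.86% of the windows met by a landscape region and in 14.1% of all windows. In the 85 windows met by a Kupffer-only region, one with no peak in blood monocytes or BMDM, the shares were 22.4% for GAGGAA and 23.5%, or 20 windows, for AGGTCA. For the AP-1 motif the shares of Kupffer-only, landscape and all windows were 9.41%, 4.02% and 6.78%. For the RBPJ motif they were 15.3%, 19.4% and 21.7%, and for the SMAD motif 14.1%, 12.1% and 16.9%. These Kupffer-only shares rest on 8, 13 and 12 windows, and no difference between the sets was tested for any motif. A match is a run of letters, not a bound site.

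The landscape was stronger and more often at promoters than the rest of the merged regions. Its median region had a mean signal of 38.6, against 9.48 for the 16514 regions that had a peak in 1 library only. A promoter window, from 250 bases before to 50 after an annotated start, was met by 21.1% of landscape regions and by 3.77% of the 1-library regions. Of the landscape, 64.9% lay inside a protein-coding gene and 91.2% had one within 50 kb. Since more signal makes a peak easier to call, the difference in signal follows in part from the count of libraries.

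**Figure D1:**
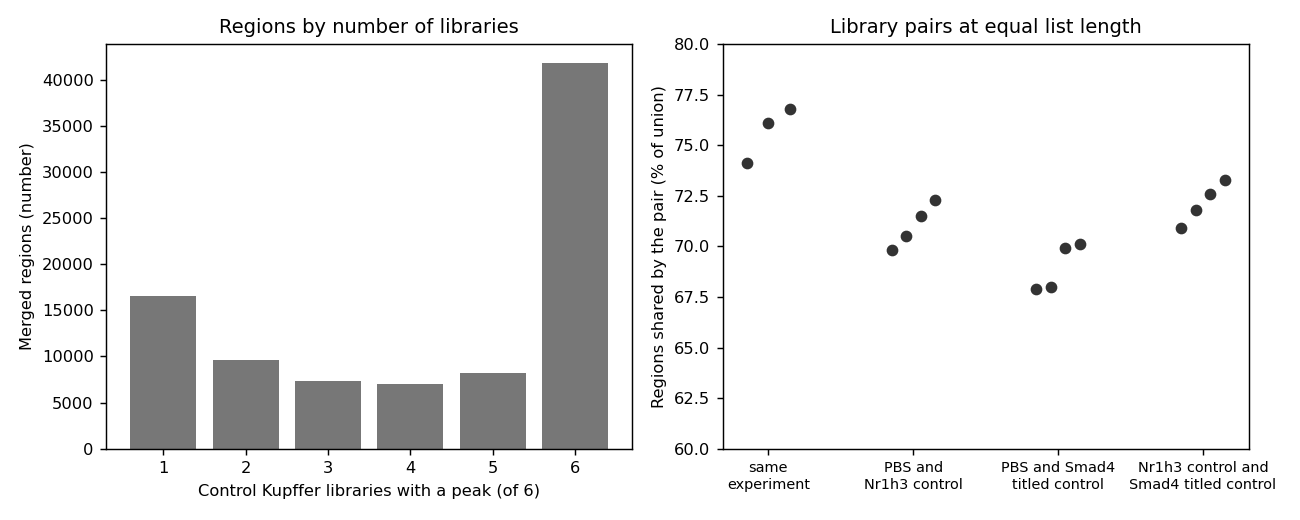
Left, merged regions by the number of control Kupffer libraries with a peak, where the bar at 6 is the landscape of 41765 regions. Right, the share of regions common to 2 libraries, as a percentage of the regions called in either, with every list shortened to its 58341 strongest peaks; each point is a pair of libraries, and pairs from the same experiment lie at 74.1% to 76.8%, above the 67.9% to 73.3% of pairs from different experiments.

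Most of the landscape was not particular to the Kupffer cell. Peaks in all 23 libraries of the series were found at 26246 landscape regions, and 314 had none in the other 17 libraries. Untreated bone marrow-derived macrophages (BMDM, cultured from C57BL/6J marrow) had a peak in both libraries at 87.0% of the landscape, and Ly6C high blood monocytes of C57BL/6J mice at 76.0%. Among the repopulating liver macrophages of the PBS controls' experiment, sampled after toxin had removed the resident cells, all 24 h libraries had a peak at 79.1% of the landscape and both 48 h libraries at 91.3%. A set of 2340 regions, 5.60% of the landscape, had no peak in any of the 6 blood monocyte, untreated BMDM or DLL4-treated BMDM libraries, and these are called Kupffer-only regions below. Of them 3.12% met a promoter window, against 22.2% of the other landscape regions, and 30.7% had a peak in both 48 h libraries, against 94.9%. Their median mean signal was 23.4, against 40 for the other landscape regions, and the part of signal level in these shares was not tested.

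The strongest landscape regions with a gene nearby were promoters of widely used genes. Of the 10 highest by mean signal, 9 met a promoter window, and all 10 had a peak in all 23 libraries. The highest was a 232 bp region in Hjurp (a chaperone of the centromeric histone; chr1:88277541-88277773), with a signal of 1156 and 1259.7 in PBS controls, 590.5 and 495 in Nr1h3 controls, and 336 and 394 in Smad4 titled controls. The PBS controls were above both other pairs there, and the 3 pairs did not overlap. The next was 29.4 kb outside Rpusd4 (a pseudouridine synthase; chr9:35305356-35305559), where PBS controls were lowest, at 536 and 410.3, against 882 and 1065 in Nr1h3 controls and 739.5 and 581 in Smad4 titled controls.
The other 8 were at Tle1 (a transcriptional corepressor), Pitrm1 (a mitochondrial peptidase), Msantd4, Adss (an enzyme of adenine nucleotide synthesis), Pja2 (a ubiquitin ligase), Cldnd1, Msmo1 (an enzyme of sterol synthesis) and Kifap3 (a kinesin-associated protein), with mean signals of 556 to 641. In each of these 8 both PBS controls were above the other 4 libraries, and both contrasts passed the test described below. Above all of them stood 2 regions with no gene within 50 kb, chr2:98667032-98667235 and chr2:98662718-98662922, with mean signals of 5227 and 2474. The first had a peak in all 23 libraries and the other in all but 1. No filter for repeated sequence was applied to the peak lists, and its part in these and the other signals named here was not tested.

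The strongest Kupffer-only region was inside Skil (SnoN, an inhibitor of SMAD proteins; chr3:31095705-31095939), with a signal of 162 and 179 in PBS controls, 280.5 and 193 in Nr1h3 controls, and 124 and 133 in Smad4 titled controls. Inside Epb41l3 (a membrane skeleton protein; chr17:69226039-69226355) the values were 201 and 189, 211 and 145, and 102 and 125, in the same order of groups. The other 8 of the 10 strongest were at Poc1b, Pkp4, Ets2 (an ETS family transcription factor), Stk10 (a kinase of lymphocytes and monocytes), Rab20 (a phagosomal GTPase), Rhob (an endosomal GTPase), Ptprm (a receptor tyrosine phosphatase) and Cntnap2, with mean signals of 127 to 156. The region in Rhob (chr12:8499235-8499528) varied least of the 10, at 129.9 and 154 in PBS controls, 149 and 124 in Nr1h3 controls and 107 and 113 in Smad4 titled controls. The one in Cntnap2 (chr6:46450500-46450719) stood higher in PBS controls, at 237 and 232, against 89.7 and 89.8 in Nr1h3 controls and 54.5 and 57.9 in Smad4 titled controls. Chosen after their values were seen, Ptprm with 13, Tshz2 with 8, and Klhl29, Pitpnc1, Sema6d and Zfhx3 with 7 each were the genes with the most Kupffer-only regions.

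Landscape regions were linked to the closest protein-coding gene up to 50 kb away, a neighbour that need not be a target. Linked in this way, 13069 genes had at least 1 region, 506 had 10 or more and 44 had 20 or more. Lpp (a focal adhesion protein) and Zfhx3 (a zinc finger homeobox factor) led with 34 each, then Cmip with 32, Itpr1 (a calcium channel of the endoplasmic reticulum) and Tmcc3 with 31, Etv6 (an ETS family repressor), Itga9 (the integrin alpha 9 chain) and Sash1 with 27, and Asap1 and Frmd4a with 26. All 10 are long genes, of 204 to 682 kb, and regions open in all 23 libraries numbered 19 at Cmip and 18 at Lpp, the highest of the 10, and 5 at Itga9, the lowest. Itga9 is among the Kupffer identity genes, and of its 27 regions 6 had a peak in both blood monocyte libraries and 18 in both untreated BMDM libraries.
Counted per length of the gene with 50 kb on each side, the densest genes were Rap1b (a small GTPase of integrin activation) with 12.9 regions per 100 kb, Irf8 (a lineage factor of mononuclear phagocytes) next, and then Irf2bp2 with 12.3. Fos, the immediate early AP-1 gene, followed with 11.6, as did Adrb1, Ier5, Ctsc and Irf2, while Rcsd1 had 11.8 and Ptp4a2 11.5; genes with fewer than 5 regions were left out of this ranking.

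Joined across gaps of up to the distance customary for stitching super-enhancers, the landscape fell into 19953 clusters. Of these 10195 held a single region and 168 held 10 or more, and those 168 held 4.82% of the regions and 4.68% of the summed signal. The cluster with the most regions, 27 over 146 kb, lay at Rcsd1 and Creg1 (chr1:165634456-165780842), with a summed signal of 1931 and 2152 in PBS controls, 2282 and 1789 in Nr1h3 controls, and 1188 and 1546 in Smad4 titled controls. The next held 21 regions at Capzb (an actin-capping protein; chr4:139156569-139252719), with 849 and 1034, 1740.4 and 1394, and 767 and 1101, in the same order. There 18 of the 21 regions were lower in PBS controls than in Nr1h3 controls, whereas at Rcsd1 it was 1 of 27.
The remaining 8 had 16 to 20 regions each. A pair lay in the histone gene cluster of chromosome 13, led by Hfe and by H4c8, and the others were led by Gm45095 beside Cebpa (a myeloid lineage factor), Gnai2 (an inhibitory G protein), Entpd1 (the ectonucleotidase CD39), Cmip, Dnmt3a (a DNA methyltransferase) and Nfic. Kupffer-only regions made up 5.42% of the regions in clusters of 10 or more, beside 5.60% of the whole landscape, and 5% of the regions that stood alone.

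**Figure D2:**
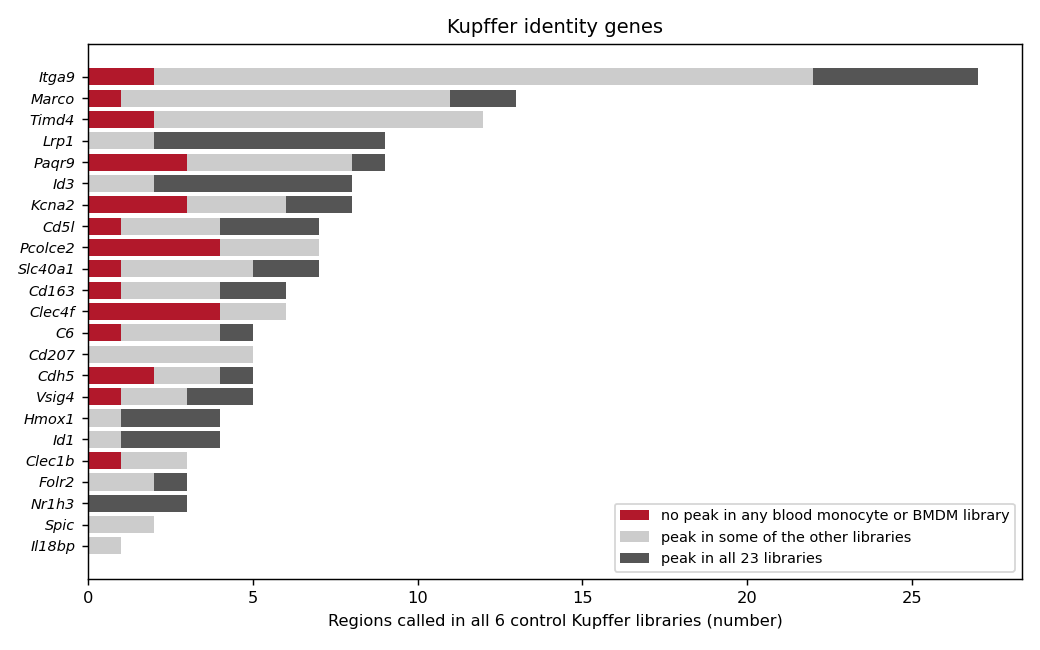
Number of landscape regions assigned to each Kupffer identity gene, split into regions with no peak in any blood monocyte or BMDM library (red), regions with a peak in some other libraries (light grey) and regions with a peak in all 23 libraries (dark grey). Clec4f and Pcolce2 have 4 red regions each, and Nr1h3 has none, all 3 of its regions being open in every library.

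The 23 Kupffer identity genes had 159 landscape regions. Kupffer-only were 27 of them, or 17%, and 27.7% had a peak in all 23 libraries, against 5.60% and 62.8% of the whole landscape. At Clec4f 4 of 6 regions were Kupffer-only, at Pcolce2 4 of 7, at Kcna2 (a potassium channel subunit) 3 of 8 and at Paqr9 3 of 9. At Id3 (an inhibitor of basic helix-loop-helix factors) 6 of 8 had a peak in all 23 libraries, at Lrp1 (a lipoprotein receptor) 7 of 9, and at Nr1h3 all 3.
The strongest Clec4f region, 12.4 kb outside the gene (chr6:83631848-83632104), had a signal of 84.4 and 111 in PBS controls, 145 and 149.9 in Nr1h3 controls and 75.7 and 91.8 in Smad4 titled controls, and no peak in blood monocytes or untreated BMDM. The Clec4f promoter region was weak in all, with a mean of 14.3 and an SD of 2.55 in the 2 PBS controls, 30.1 and 20.5 in Nr1h3 controls and 30.9 and 24.6 in Smad4 titled controls, and lower in PBS controls in both contrasts described below (log2 fold changes of -0.91 and -1.42). The Timd4 promoter region (chr11:46810575-46810965) had 84.4 and 76.7 in PBS controls, 67.7 and 48.2 in Nr1h3 controls and 41.2 and 53 in Smad4 titled controls, with 60.2 and 48.2 in untreated BMDM and no peak in blood monocytes. The Cd5l promoter region (chr3:87357733-87358004) had 76.8 and 62.3, 87.3 and 86.5, and 49.1 and 79.8. Neither the Timd4 nor the Cd5l promoter passed the test in a pairwise contrast.

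The landscape was set against blood monocytes and untreated BMDM to show where it differs from them. The test was limma's moderated test on log2(signal + 1) after centring each library on its median, with Benjamini-Hochberg adjustment over all regions tested, called at an adjusted p of 0.05, and the mean of the 3 control pairs was compared with the other group. Each pair was its own group in the fit, so standard errors and p-values here measure spread within pairs and not between experiments. Of 31762 regions open in all 8 libraries 58.1% passed, with 28.1% higher and 30.0% lower in Kupffer controls than in blood monocytes, and of 36337 regions 55.3% passed, with 31.1% higher and 24.1% lower than in untreated BMDM. The other groups come from other experiments, so cell type and experiment cannot be told apart here. Before centring, the log2 difference of the median region, Kupffer controls minus the other group, was -0.59 for blood monocytes and -0.71 for BMDM. Changes are relative to that median: without centring 2853 regions were higher and 15879 lower than in blood monocytes, and 2694 higher and 22516 lower than in BMDM, so that the balance against BMDM turned. In this bulk assay more cells with an open region and more opening per cell cannot be told apart either.
A region inside Enpp2 (autotaxin, which makes lysophosphatidic acid; chr15:54929385-54929597) had a signal of 398 and 378 in PBS controls, 217 and 213 in Nr1h3 controls and 102 and 142 in Smad4 titled controls, against 13 and 7.05 in blood monocytes, a log2 fold change of 4.92 with a standard error of 0.17 and an adjusted p of 3.0e-31. That p-value does not measure the spread between the 3 Kupffer experiments. The other 4 highest against monocytes were at Abhd12, Mrap2, Ccn1 and Phactr1, with log2 fold changes of 4.05 to 4.71. The 5 lowest were at Mfap3l, 4930523C07Rik, Wwox, Alcam (a cell adhesion molecule) and Mboat1, at -3.80 to -3.38. Against untreated BMDM the 5 highest were at Rcsd1, Arl15, Epha1 (an ephrin receptor), Csrp1 and Marchf4, at 4.39 to 4.88, and the 5 lowest at Lrig1, Lrp8, Mfap3l, Aff1 and Tmem236, at -3.78 to -3.29. Regions of the Kupffer identity genes were higher than in blood monocytes at 33 of the 57 tested and lower at 4, and higher than in untreated BMDM at 56 of 105 and lower at 15. The 57 and 105 are those with a peak in every library compared, so regions that are closed in the other cells are not among them.

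The 6 libraries were compared with one another by the regions they held and by signal. At equal list length, with each list shortened to its 58341 strongest peaks, pairs of libraries shared 74.1% to 76.8% of their regions within an experiment and 67.9% to 73.3% between experiments. Across the 39039 regions called in all 6 shortened lists the log2 signals correlated with r = 0.95 to 0.96 within an experiment. Between Nr1h3 controls and Smad4 titled controls r was 0.92 to 0.93, between PBS and Nr1h3 controls 0.82 to 0.88, and between PBS controls and Smad4 titled controls 0.79 to 0.86. These are descriptions over 39039 regions that share libraries, depth and base composition. A median region had a standard deviation of 0.21 on the log2 scale within experiments and of 0.31 between the 3 experiment means.

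The signal of the landscape was compared between the experiments by limma, as above, over the 6 libraries. The moderated F test called 18498 of the 41765 regions, or 44.3%. Between PBS and Nr1h3 controls 35.4% passed, with 7970 regions (19.1%) higher and 6831 (16.4%) lower in PBS controls. Between PBS and Smad4 titled controls 37.5% passed, with 8479 (20.3%) higher and 7178 (17.2%) lower in PBS controls. Nr1h3 controls differed from Smad4 titled controls at 5.32% of regions, with 1464 (3.51%) higher and 757 (1.81%) lower.
With 2 libraries a group, the p-values measure the spread between these libraries, and the labels do not say for each pair whether they are separate animals. Before centring, the median region was higher by 0.19 on the log2 scale in PBS than in Nr1h3 controls, by 0.55 in PBS than in Smad4 titled controls and by 0.37 in Nr1h3 than in Smad4 titled controls, and each change here is relative to that median. Without centring, the regions higher in PBS controls made up 78.5% of calls against Nr1h3 controls and 96.8% against Smad4 titled controls, where with centring they were 53.8% and 54.2%, and those higher in Nr1h3 than in Smad4 titled controls 96.9% of calls, where with centring they were 65.9%. With quantile normalisation this last share was 55.9%. The smallest contrast also rested on few libraries: without Nr1h3 control 1 it called 467 higher and 293 lower, without Nr1h3 control 2 it called 347 and 242, without the Smad4 titled control of 16.5 M tags it called 907 and 337, and without that of 18.3 M tags it called 704 and 310. Without a PBS control, which enters this contrast through the shared estimate of spread and the choice of regions tested, it called 2523 and 1084 without the library of mouse 60, and 2431 and 1069 without the other. The contrast of PBS and Nr1h3 controls called 4569 higher and 4858 lower without mouse 60 and 4671 and 4036 without Nr1h3 control 1. That of PBS and Smad4 titled controls called 6282 and 4442 without the Smad4 library of 18.3 M tags. With the Smad4 pair whose strain label lacks Cre, PBS controls were higher at 8135 and lower at 8110 of 36676 regions, and Nr1h3 controls at 2474 and 2031.

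Relative to the median of each library, regions with few others around them were higher in PBS controls, and regions in dense stretches were lower. For the 2215 landscape regions with no other within 50 kb the median log2 fold change was 0.63 against Nr1h3 controls and 0.51 against Smad4 titled controls. For the 7687 regions with 9 or more it was -0.33 and -0.27, and the bins between followed in order. Called higher in PBS than in Nr1h3 controls were 51.1% of the regions with no neighbour and 3.33% of those with 9 or more, and called lower were 4.02% and 31.9%. Between Nr1h3 and Smad4 titled controls the median ran from -0.09 with no neighbour to 0.06 with 9 or more.
Within each library, the median signal of regions with no neighbour was 44.5 and 45.1 in PBS controls, 27.8 and 22.4 in Nr1h3 controls and 20 and 24.1 in Smad4 titled controls. That of regions with 9 or more was 37.0 and 47.0, 54.4 and 43.6, and 32.1 and 39.9, in the same order. In these medians, which are not centred, PBS controls were above both other pairs with no neighbour. With 9 or more they overlapped both other pairs. The log2 difference of these medians, no neighbour minus 9 or more, was 0.26 and -0.06 in PBS controls, -0.94 and -0.93 in Nr1h3 controls and -0.66 and -0.70 in Smad4 titled controls. The other libraries of an experiment stood near their controls: -0.90 to -0.72 in Nr1h3 knockout Kupffer cells, -0.64 and -0.47 in those titled Smad4 knockout, and -0.08 to 0.24 in repopulating macrophages. Blood monocytes and BMDM lay at -0.03 to 0.18. Landscape regions were chosen from the control Kupffer libraries, and the values of the others are over the regions where they had a peak.
Depth, reads trimmed before alignment as named in the headers of the Nr1h3 and Smad4 libraries and not in those of PBS controls, and the header tag all moved with the experiment, and their part in this pattern was not tested. Across 8833 promoter regions the correlation of log2 fold change with promoter GC content was r = -0.03, -0.08 and -0.10 for PBS minus Nr1h3, PBS minus Smad4 titled and Nr1h3 minus Smad4 titled controls.

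**Figure D3:**
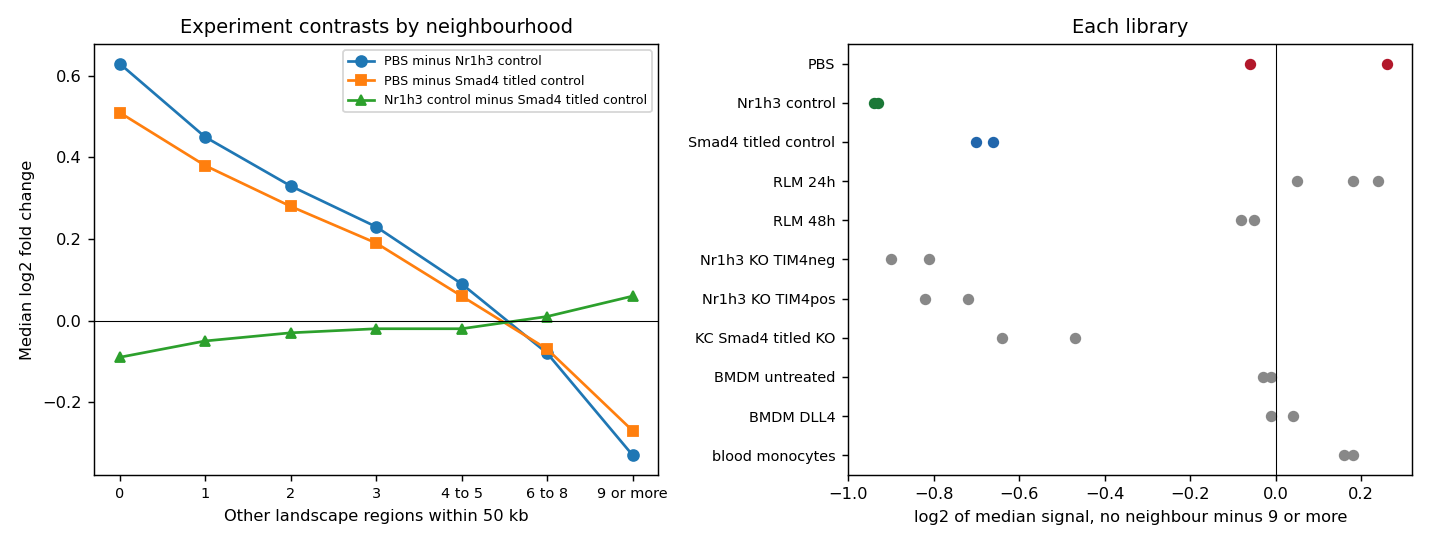
Left, the median log2 fold change of landscape regions in each contrast, by the number of other landscape regions within 50 kb; both contrasts with PBS controls fall across the bins, from 0.63 and 0.51 to -0.33 and -0.27. Right, for every library of the series, the log2 difference between the median signal of regions with no neighbour and of those with 9 or more; points are libraries, PBS controls lie at -0.06 and 0.26 and the other control Kupffer libraries at -0.94 to -0.66.

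Most of the gene lists had more regions lower than higher in PBS controls, with interferon response, monocyte and liver endothelial genes as exceptions in the contrast with Nr1h3 controls, and interferon response, monocyte and iron and heme genes in that with Smad4 titled controls. Of the 18 gene lists with 25 or more regions, 15 had more regions lower than higher in PBS than in Nr1h3 controls, and 15 in PBS than in Smad4 titled controls. Over all regions 16.4% were lower and 19.1% higher in the first contrast, with a median log2 fold change of 0.05, and 17.2% and 20.3% in the second, with a median of 0.03. Without centring, 13 of the 18 lists had more lower than higher against Nr1h3 controls and 0 against Smad4 titled controls. Then 15 of the 18 lists still had a negative median against Nr1h3 controls, but 17 of the 18 had a positive one against Smad4 titled controls, antigen presentation being the exception. The median number of neighbours within 50 kb ran from 4 for complement genes to 10.5 for antigen presentation genes, against 5 over the landscape. With each library centred within bins of neighbour number, an alternative chosen after seeing the data, 15 and 14 of the 18 lists still had more regions lower than higher. Over all regions this centring called 15% lower and 13.2% higher in the first contrast, and 16.1% and 17.8% in the second. With the Smad4 pair whose strain label lacks Cre, 16 lists had 25 or more regions and 15 of them had more lower than higher in PBS controls, where 22.1% of all regions were lower and 22.2% higher. Of the lists below, lower and higher were then 48 and 7 of 82 regions for immediate early and AP-1 genes, 28 and 1 of 45 for antigen presentation, 29 and 3 of 64 for core macrophage genes, 24 and 7 of 75 for LXR targets, 66 and 12 of 164 for macrophage transcription factors, and 26 and 22 of 121 for Kupffer identity genes.

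The immediate early and AP-1 genes, which are induced within minutes by stress and by tissue dissociation, had 85 landscape regions. Lower in PBS than in Nr1h3 controls were 51 of them and higher 5, with a median log2 fold change of -0.59, and against Smad4 titled controls 40 and 7, with a median of -0.41. Centred within neighbour bins the counts were 33 and 9, and 19 and 9, beside the shares of all regions under that centring given above, and with no centring 16 and 3, and 1 and 11, so that the second contrast turned. At Fos 10 of 12 regions were lower in both contrasts, at Dusp1 (a MAP kinase phosphatase) 7 of 7 and at Nr4a1 (an orphan nuclear receptor) 6 of 6. The Dusp1 promoter region (chr17:26508364-26508783) had a signal of 68.2 and 142 in PBS controls, 203 and 154 in Nr1h3 controls and 117 and 109.9 in Smad4 titled controls. Before centring, PBS and Smad4 titled controls overlapped there. Klf6 (a zinc finger factor) went the other way, with 4 of 10 regions higher against Nr1h3 controls and 6 against Smad4 titled controls. Its promoter region (chr13:5861247-5861463) had 425 and 443 in PBS controls, 282 and 222 in Nr1h3 controls and 146 and 186 in Smad4 titled controls.

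Antigen presentation genes had 46 landscape regions. In PBS controls 24 were lower and none higher in each contrast, with median log2 fold changes of -0.60 against Nr1h3 and -0.61 against Smad4 titled controls. Within neighbour bins the counts were 12 lower and 3 higher, and 19 lower and 1 higher, and with no centring 6 and 0, and 2 and 2. The promoter region of H2-Eb1 (an MHC class II beta chain; chr17:34305725-34305969) had 51.2 and 74.8 in PBS controls, 109 and 83.8 in Nr1h3 controls and 80.5 and 99.5 in Smad4 titled controls, so that the PBS controls did not overlap either pair. Its log2 fold change was -0.76 with a standard error of 0.18 against Nr1h3 controls (adjusted p = 0.00078) and -1.04 with 0.18 against Smad4 titled controls. Dendritic cells also carry these genes, and of the 7 dendritic cell promoters that of Batf3 alone was open in all 6. The summed signal over regions of the dendritic cell list was 1121 and 1315 in PBS controls, 1665 and 1196 in Nr1h3 controls and 1017 and 1186 in Smad4 titled controls, and its part in the result was not tested.

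The core macrophage list had 68 regions, of which 33 were lower and 3 higher in PBS than in Nr1h3 controls, and 25 and 7 against Smad4 titled controls. With no centring the counts were 14 and 2, and 4 and 11, so that the second contrast turned. At Mertk (a receptor for apoptotic cells) 13 of 14 regions were lower in both contrasts. The C1qb promoter region (a chain of complement C1q; chr4:136886096-136886479) had 60.7 and 88.2 in PBS controls, 179 and 125 in Nr1h3 controls and 70.9 and 91.3 in Smad4 titled controls. In these values, which are not centred, PBS and Smad4 titled controls overlapped. At Tlr4, the receptor of lipopolysaccharide, 3 of 5 regions were higher in PBS than in Nr1h3 controls and 5 of 5 than in Smad4 titled controls.
LXR targets had 85 regions, 43 lower and 3 higher in PBS than in Nr1h3 controls and 29 lower and 3 higher than in Smad4 titled controls, with medians of -0.45 and -0.33. With no centring 11 were lower and 2 higher, and 0 lower and 9 higher, so that the second contrast turned here too. At Abca1, the cholesterol exporter, 13 of 18 were lower in the first contrast and 3 in the second. At Pltp (phospholipid transfer protein) 5 of 5 were lower in both. At Nr1h3 itself, whose floxed but not deleted allele the Nr1h3 controls carry, all 3 regions were lower in PBS controls in both contrasts. Its promoter region (chr2:91194661-91195054) had 56.9 and 65.2 in PBS controls, 141 and 93.1 in Nr1h3 controls and 51.5 and 74.3 in Smad4 titled controls. Before centring, PBS and Smad4 titled controls thus overlapped at this promoter.
Among the macrophage transcription factors 57 of 179 regions were lower and 11 higher in PBS than in Nr1h3 controls, and 46 and 15 against Smad4 titled controls. With no centring it was 18 and 10, and 3 and 30, and the second contrast turned again. At Irf8 9 of 15 were lower in both, at Irf1 12 and 11 of 12, and at Spi1, which encodes PU.1, 4 and 5 of 5. At Bach1 (a heme-sensing repressor) 4 and 5 of 12 were higher and at Tfec 3 and 4 of 7, and none was lower.

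The Kupffer identity genes had 159 regions. In PBS controls 43 were lower and 4 higher than in Nr1h3 controls, with a median of -0.19, and 29 lower and 12 higher than in Smad4 titled controls, with a median of -0.16. Within neighbour bins the counts against Smad4 titled controls were 16 lower and 20 higher, and with no centring 1 lower and 37 higher. At Itga9 13 of 27 regions were lower than in Nr1h3 controls and 6 than in Smad4 titled controls, at Lrp1 8 and 7 of 9, and at Id3 7 and 5 of 8. No region of Timd4, Vsig4, Pcolce2, Marco, Cd163 or Cdh5 was lower in PBS than in Nr1h3 controls. Nor was any of Spic, Kcna2, Slc40a1, C6, Paqr9 or Clec1b. The regions lower in that contrast lay at the remaining genes of the list, most of them at Itga9, Lrp1 and Id3. At Marco 5 of 13 regions were higher in PBS than in Smad4 titled controls. Between Nr1h3 and Smad4 titled controls 14 of the 159 were higher, among them 5 at Itga9, and none lower, against 3.51% and 1.81% of all regions. With the other Smad4 pair 28 of 121 were higher and 1 lower, against 6.75% and 5.54% of all regions.

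Counts for the other lists follow. Lower and higher in PBS than in Nr1h3 controls were 38 and 10 of 133 regions of scavenger and phagocytic receptors, 31 and 3 of 99 of TGF-beta and BMP genes, 29 and 3 of 75 of lysosome genes, 39 and 3 of 85 of inflammatory genes, 11 and 2 of 31 of complement genes, 13 and 4 of 49 of iron and heme genes, 10 and 0 of 29 of heat shock genes and 20 and 8 of 107 of Notch pathway genes. Against Smad4 titled controls they were, in the same order of lists, 42 and 16, 23 and 9, 19 and 8, 25 and 4, 9 and 3, 7 and 7, 9 and 2, and 23 and 9. At Smad3, a receptor-activated SMAD, 7 of 7 regions were lower in both contrasts with PBS controls, and at Notch1 6 and 8 of 8. At Npc2, a lysosomal cholesterol carrier, it was 7 and 5 of 7. Interferon response genes had 2 of 28 lower and 4 higher in each contrast. Among markers of other cells, in the contrast with Nr1h3 controls, 4 of 32 monocyte regions were lower and 6 higher, 4 and 5 of 26 liver endothelial regions, 9 and 0 of 26 dendritic cell regions, 0 and 2 of 7 neutrophil regions, 1 and 0 of 7 B cell regions, 2 and 2 of 14 T and NK cell regions, 0 and 0 of 4 hepatocyte regions and 2 and 0 of 4 stellate regions. Against Smad4 titled controls the counts of these 8 lists were 5 and 7, 5 and 2, 7 and 0, 1 and 2, 3 and 0, 4 and 0, 0 and 1, and 1 and 0.

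**Figure D4:**
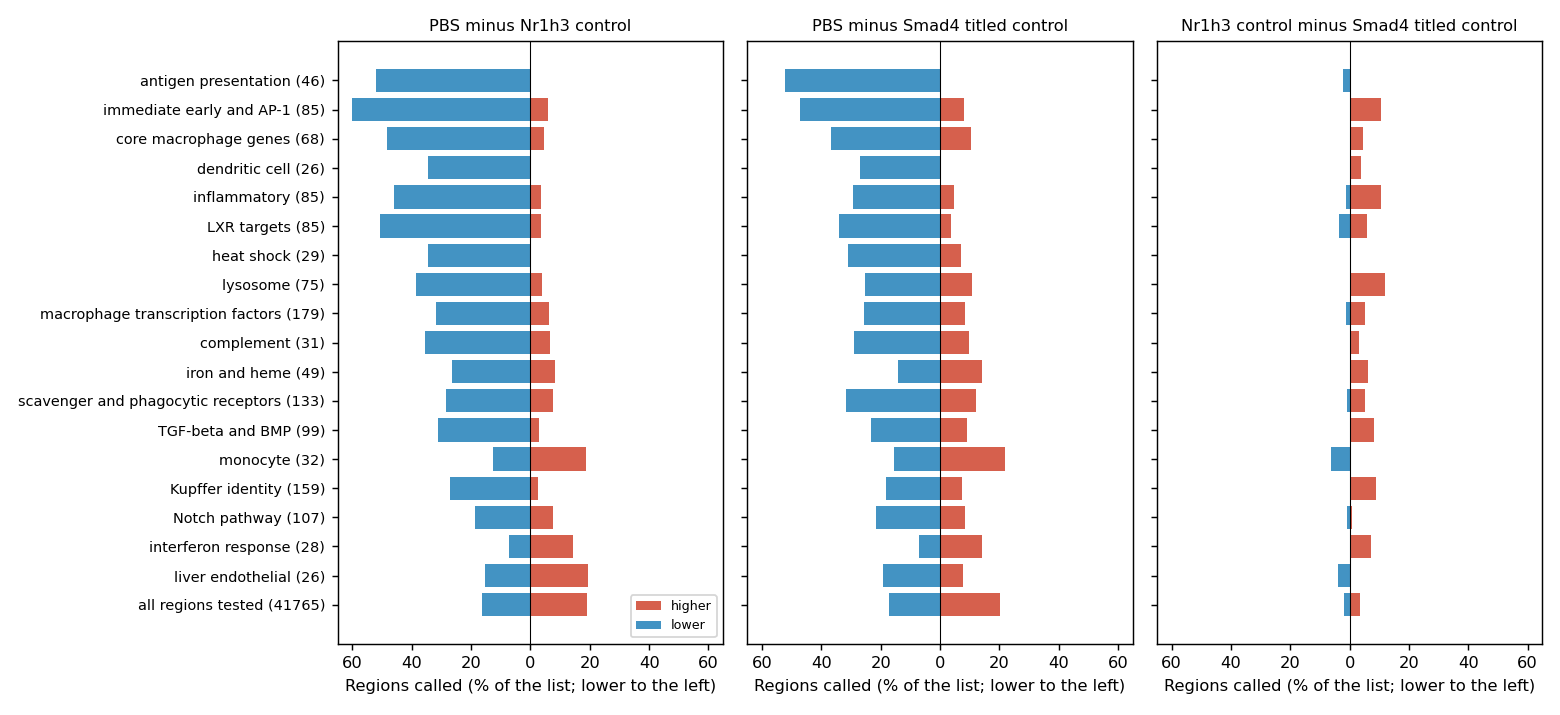
Share of each list's landscape regions called higher (red, to the right) or lower (blue, to the left) in the first group of each contrast, for lists with 25 or more regions, whose number is in brackets, with all 41765 regions in the bottom row. Immediate early and AP-1 genes had 51 of 85 regions lower in PBS than in Nr1h3 controls; changes are relative to the median region, and without that centring 17 of the 18 lists had a positive median in PBS minus Smad4 titled controls.

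The largest single differences of each contrast are given next. In PBS against Nr1h3 controls the 5 largest increases were at Zfp729b, Mctp1, BC052040, Zfp759 and Akr1e1, 4 of them on chromosome 13. The Mctp1 promoter region (chr13:76579455-76579741) had a signal of 151 and 147 in PBS controls, against 22.6 and 10.6 in Nr1h3 controls, a log2 fold change of 3.04 with a standard error of 0.24. Smad4 titled controls had 32.7 and 37.2 there. The 5 largest decreases were at Sfi1, Tut7, Eri1, C1qtnf1 and Pdk1, at -2.70 to -1.78. The region inside Sfi1 (a centrosomal protein; chr11:3193043-3193300) had 146 and 152 in PBS controls, against 877 and 887 in Nr1h3 controls, and 97.5 and 101 in Smad4 titled controls. The Nr1h3 controls alone were high, blood monocytes having 208 and 240.3 and untreated BMDM 202 and 189. Repeated sequence was not filtered out, and its part in this difference was not tested.

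In PBS against Smad4 titled controls the 5 largest increases were at Ubxn2b, Mid1, Klra8, Socs6 (a suppressor of cytokine signalling) and Mdfic. The region 2.23 kb outside Ubxn2b (chr4:6222018-6222339) had 264 and 312 in PBS controls, a mean of 187 with an SD of 35.8 in the 2 Nr1h3 controls, and 7.87 and 9.84 in Smad4 titled controls, a log2 fold change of 4.37 with a standard error of 0.18. Blood monocytes had 13 and 9.16 there and untreated BMDM 16.6 and 9.63, so that the Smad4 titled controls stood at their level and the other Kupffer controls far above. The region inside Mid1 (a ubiquitin ligase; chrX:169980926-169981271) had 167 and 309.6, 394 and 278, and 11.5 and 29, in the same order of Kupffer controls. The 5 largest decreases were at Dym, Ttc34, Ltbp4 (a binding protein of latent TGF-beta), Myo1g and Ube4b, at -3.14 to -2.09. The region inside Dym (chr18:75244939-75245254) had 6.64 and 11.5 in PBS controls, 17.9 and 15.2 in Nr1h3 controls, and 46 and 76.5 in Smad4 titled controls, and lies on the chromosome of Smad4, within 10 Mb of it.
In the Smad4 pair whose strain label lacks Cre, the Ubxn2b region had a peak of 54.6 in 1 library and none in the other, the Mid1 region had 23.4 and 52.7 and the Dym region 19 and 58.9. Of the 10 regions above, 7 had a peak in every library with that pair, and the 7 passed the test in the same direction, with PBS minus Smad4 log2 fold changes of 1.84 at Mid1, 2.44 at Mdfic, -2.64 at Dym, -2.11 at Ttc34, -1.47 at Ltbp4, -2.29 at Myo1g and -1.69 at Ube4b. Ubxn2b, Klra8 and Socs6 could not be tested.

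Between Nr1h3 and Smad4 titled controls Ubxn2b, Mid1 and Sfi1 led again, followed by Rab7b (a late endosomal GTPase). The region inside Rab7b (chr1:131700464-131700716) had 71.1 and 66 in Nr1h3 controls, against 7.87 and 10.4 in Smad4 titled controls, and 37 and 55.6 in PBS controls. The largest decreases were at Lat2, Oxr1, 4931417E11Rik, Plac8 and Ttc34, at -2.50 to -2.38. The region inside Lat2 (an adaptor of immune receptors; chr5:134607157-134607484) had 11 and 5.94 in Nr1h3 controls, 40 and 37.7 in Smad4 titled controls, and 21.8 and 27.8 in PBS controls, all far below the 229.5 and 283 of blood monocytes and the 252 and 271 of untreated BMDM. With the other Smad4 pair the log2 fold changes, Nr1h3 minus Smad4, were 2.50 at Mid1, 1.90 at Sfi1, 2.31 at Rab7b, -2.95 at Lat2, -2.59 at Oxr1 and -2.07 at Ttc34, and all 6 passed, while 4931417E11Rik and Plac8 could not be tested.

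**Figure D5:**
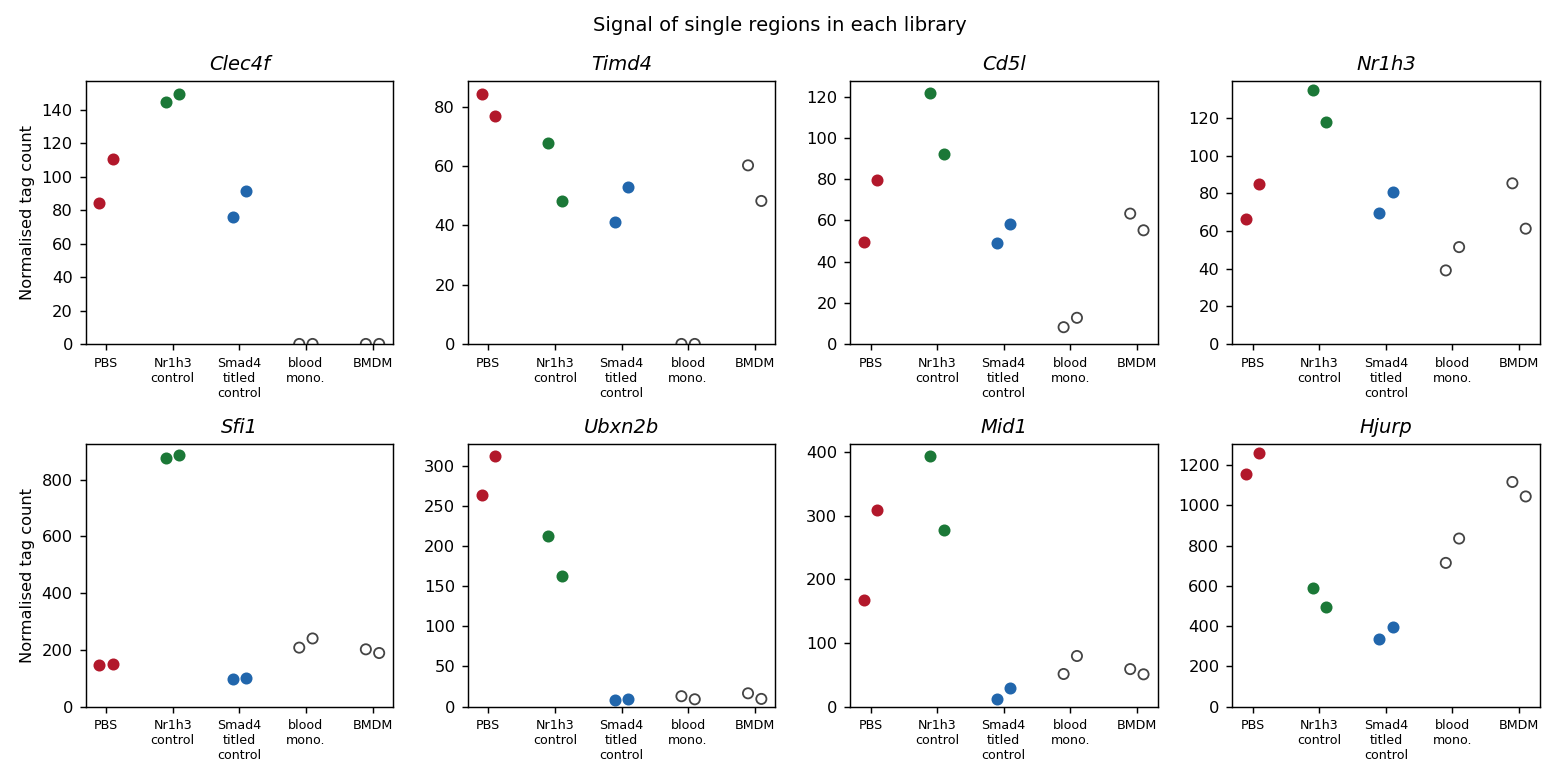
Normalised tag count of 1 landscape region at each of 8 genes, one point per library: the strongest region of Clec4f, Timd4, Cd5l, Nr1h3 and Hjurp, and the regions of Sfi1, Ubxn2b and Mid1 with the largest differences between experiments. Filled points are PBS, Nr1h3 and Smad4 titled controls and open points blood monocytes and untreated BMDM, placed at 0 where a library had no peak; at Ubxn2b the Smad4 titled controls lie at 7.87 and 9.84, against 162 to 312 in the other Kupffer controls.

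Large differences were counted along the genome, since the mice differ in engineered alleles. Called with an absolute log2 fold change of 1.5 or more were 0.970% of regions between PBS and Nr1h3 controls, 1.30% between PBS and Smad4 titled controls and 0.199% between Nr1h3 and Smad4 titled controls. Within 10 Mb of Smad4 it was 8, 10 and 3 of 360 regions, or 2.22%, 2.78% and 0.833%. Within 10 Mb of Clec4f it was 3, 5 and 3 of 315 regions, or 0.952%, 1.59% and 0.952%, and within 10 Mb of Nr1h3 none in any contrast. With the other Smad4 pair, the PBS contrast had 9 of 307 near Smad4, 9 of 287 near Clec4f and 6 of 191 near Nr1h3, or 2.93%, 3.14% and 3.14%, against 3.00% of all regions. The Nr1h3 contrast had 8, 2 and 0, or 2.61%, 0.697% and 0%, against 0.693%. In windows of 10 Mb with 50 or more regions, the highest share in both contrasts with PBS controls was 11.1%, 9 of 81, on chromosome 13 between 80 and 90 Mb, and all 9 were higher in PBS controls. Between Nr1h3 and Smad4 titled controls it was 5.31%, 6 of 113, on chromosome 6 between 70 and 80 Mb, the window before the one that holds Clec4f.

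At equal list length 1504 regions had a peak in both PBS controls and in none of the other 4 control libraries, 1.83% of the 82197 merged regions of the shortened lists. In the Nr1h3 controls it was 856, or 1.04%, and in the Smad4 titled controls 1161, or 1.41%. They were weak: the median signal was 15.2, 11.7 and 10.9, against 28.1, 24.3 and 19.7 over all regions of each pair. Most were not private to an experiment, as 202, 82 and 108 had no peak in any of the other 17 libraries. Both untreated BMDM libraries had a peak at 50.2%, 39.1% and 49.4%. When the full lists were read, 38.3%, 38.4% and 34.3% had a peak in at least 1 of the other 4 libraries. With no peak allowed within 1 kb, the counts were 1138, 537 and 784. With the Smad4 pair whose strain label lacks Cre in place of the titled controls, that pair had 1867 of its own.
Of the 3 strongest in each pair with a gene within 50 kb, 9 in all, 7 had a called peak within 1 kb in all 4 other libraries. The region inside Evi5l (chr8:4166362-4166562), with 463 and 423 in PBS controls, had peaks of 194 to 434 within 1 kb in all 4 others, and the one inside Kat6a likewise had 77.5 to 124. The third, 0.165 kb outside Junb (an AP-1 subunit; chr8:84976542-84976744), had 89.1 and 158 in PBS controls and no peak within 1 kb in the 4 others. Of the other 17 libraries of the series, 12 had a peak in that Junb region. In the Nr1h3 controls the 3 strongest, at Dusp1, Azin1 and Sirpa (an inhibitory receptor of myeloid cells), all had peaks within 1 kb in the 4 others. In the Smad4 titled controls the region inside Mxra8 (chr4:155839542-155839752) had 111 and 124, with a single peak of 11.5 within 1 kb in the 4 others, while those at Klf2 and Atp2b1 had neighbours of 220.5 to 459 and 248 to 354. The strongest of all in the Smad4 titled controls, chr2:98666387-98666597, had no gene within 50 kb, signals of 2779 and 2696, and peaks of 3446 to 6641 within 1 kb in all 4 others. The genes with the most such regions were Tenm2 with 7, Fry and Mctp1 with 6 in PBS controls, Arl15 with 4, Camk1d and Clip1 with 3 in Nr1h3 controls, and Col6a6 with 6, Exoc4 and Plscr4 with 4 in Smad4 titled controls. Kupffer identity genes had none of the 1504 PBS regions, 3 of the 856 Nr1h3 control regions, at Cd163, Slc40a1 and Timd4, and 5 of the 1161 Smad4 titled control regions, at Cdh5, Clec4f, Id1 and Itga9. For scale, these genes had 159 of the 41765 landscape regions, and no difference is read from such small counts.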

How the data were processed

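ATAC-seq was done on mouse liver macrophages, blood monocytes and cultured macrophages, and the peak lists of 6 control Kupffer libraries were analysed, with the other 17 for comparison. Per the labels' protocols, sorted cells were tagmented with Nextera reagents, amplified by PCR and size selected. Per the submitters' processing notes, Bowtie2 and HOMER were used on mm10. Per the file headers, peaks were called by HOMER findPeaks for each library, with a peak size of 200 bp, a false discovery rate of 0.001 and 4-fold enrichment over the local 10 kb at a Poisson p-value of 0.0001. The deposited signal is the normalised tag count of a peak, scaled by the authors to 10 M tags. The deposited findPeaks score was used for one alternative ranking.

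Peaks on chromosomes 1 to 19 and X were merged when they overlapped by at least 1 bp, and a region took the strongest peak of each library. No filter for repeated sequence was applied. Regions in all 6 were tested with limma 3.58.1 (R 4.3.3), with a mean-variance trend, on log2(signal + 1) centred on library medians, at an adjusted p of 0.05 (Benjamini-Hochberg). The procedure was run on simulated data with independent noise, without the shifts between libraries or the neighbour pattern seen here. That run cannot show how the test behaves under them. Regions were assigned to the nearest of 21887 RefSeq protein-coding genes (GRCm38.p6) within 50 kb. All 307 genes of 25 lists matched that table by symbol. The sex-linked list had no landscape region. Signals of a peak are no counts over a fixed window, and depth (10.4 to 18.3 M tags) limits weak peaks most. The members and gene lists were chosen with earlier results of these data known. The named genes are the 10 strongest regions, the 10 strongest Kupffer-only regions, the genes and clusters with the most regions, the 5 largest changes in each direction of each contrast that do not overlap between groups (for blood monocytes and BMDM, the 5 largest that passed), the 3 strongest regions and richest genes of each experiment, and list genes that passed the F test. One gene that the rule names is not reported here.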

Additional observations from a re-analysis of the deposited data

How the results depend on the processing

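Peak lists hold no value where no peak was called, so regions under the calling threshold of a library cannot be compared, and the 10.4 to 18.3 M tags limit weak regions. All 619 recomputed values of named regions kept their direction and their side of the threshold, while regions lost from a refit gave none. These values cover only the largest passing changes in each direction of each contrast, chosen for their size, so this outcome was close to given. Regions named for other reasons, such as those at H2-Eb1, Dusp1 and C1qb, are not among the 619. Of the recomputed counts of list regions 114 moved by over 1.5 times and 174 did not, and of the other counts 40 and 161. Causes of the changes below were not tested unless the setting itself shows them. No paired analysis was possible because the groups of the experiment contrasts share no replicate numbers in the labels, and in the contrast with BMDM the PBS and Smad4 libraries have no partner of the same number. The edgeR test planned for recovered reads was not run, since whole reads could not be recovered from the peak signals.

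Without centring, regions lower in PBS controls numbered 1642 against Nr1h3 controls, and 15505 were higher and 507 lower against Smad4 titled controls. Likewise 66 were lower in Nr1h3 than in Smad4 titled controls, 2853 were higher and 15879 lower than in blood monocytes, and 2694 higher and 22516 lower than in BMDM. In the fit over all 23 libraries 965 regions were higher in Nr1h3 than in Smad4 titled controls, over fewer regions. With the pair whose strain label lacks Cre, 2474 were higher and 2031 lower in that contrast, and that pair had 1867 regions of its own. With peaks of a signal of at least 20 the landscape held 23912 regions. Lists of 30000 peaks gave 470 regions to Nr1h3 controls alone and 636 to Smad4 titled controls alone, and a distance of 1 kb gave 537 to Nr1h3 controls. Joined at 5 kb, 0 clusters reached 10 regions and the largest held 9.

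Leaving out 1 library at a time gave 4569 to 8244 regions higher and 4036 to 7291 lower in PBS than in Nr1h3 controls, 5853 to 8384 and 4442 to 7300 against Smad4 titled controls, and 347 to 2523 and 242 to 1084 between Nr1h3 and Smad4 titled controls. In the first contrast the 4569 came without PBS control 60 and the 4036 without Nr1h3 control 1, and the 4442 without the Smad4 titled control of 18.3 M tags. The F test called 13730 to 18355 regions, and the landscape held 42320 to 43720. Regions of 1 experiment numbered 1968 to 4385 in PBS controls, 1188 to 3200 in Nr1h3 controls and 1433 to 3903 in Smad4 titled controls, since fewer libraries must then agree. Against blood monocytes 7545 to 9232 were higher and 7598 to 9750 lower, and against BMDM 8663 to 11735 and 6332 to 9287.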
